A study of Arabidopsis thaliana with 27 samples.

Results

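The comparison concerns 1 experiment within a series of 27 Arabidopsis seedling RNA-seq libraries: the mutant vil1-1 against the wild type Col-0, both harvested 6 h after lights on (ZT6). Its members were taken by label, as the 3 libraries titled as vil1-1 at ZT6 and the 3 titled as Col-0 at ZT6, so it holds 6 of the 27 samples. Seedlings of both genotypes were about a week old and grew on MS medium at 22 °C under a short day (8 h light, 16 h dark), so ZT6 lies inside the light period. They were whole seedlings, and no other allele, transgene or agent is given for either genotype. The other samples used here for reference are vil1-1 and Col-0 at the end of the night (ZT0), and the double mutant vil1-1cop1-4 and its single mutant cop1-4 at ZT6, each with 3 libraries. The remaining groups are cop1-4, vil1-1cop1-4 and the mutant hy5-215, all at ZT0 with 3 libraries each. They entered only the shared fit of all 27 samples, with its filter, scaling and estimate of spread. cop1-4 is a viable, partial loss-of-function allele of COP1. Replicates carry numbers in the labels, without a word on separate cultures. The p-values therefore cover only the spread among these libraries, which may be technical.

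VIL1 (VRN5) belongs to the small VIN3 family of PHD-finger proteins, which joins Polycomb repressive complex 2. That complex places trimethylation on lysine 27 of histone H3, a mark of silenced chromatin, and the family is best known for silencing the flowering repressor FLC after winter cold. COP1 is the E3 ubiquitin ligase that removes light-signalling factors such as HY5 in darkness.

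The libraries held 22560764 to 29877705 reads in genes in vil1-1 and 20515825 to 30854992 in Col-0. Levels are given as CPM (read counts per 1000000 reads in genes, with library sizes scaled by TMM) and are not divided by gene length. A gene is called when its edgeR quasi-likelihood p, adjusted by Benjamini-Hochberg over the 21448 genes tested, was under 0.05. The first principal component of the 6 libraries held 59.4% of their variance and parted the genotypes, with scores of −34 to −25.7 in vil1-1 and 24.2 to 34.9 in Col-0. Both genotypes held the transcripts of a whole seedling. Markers of photosynthetic tissue summed to 24400 to 25600 CPM in vil1-1 and 25800 to 26700 CPM in Col-0, and 12 root markers to 170 to 191 and 191 to 194 CPM.

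The mutant label was checked first. VIL1 (AT3G24440) had 4.62, 6.21 and 6.95 CPM in vil1-1, against 23.5, 23.9 and 22 CPM in Col-0. Every vil1-1 library lay far below every Col-0 library, and the log2 change was −1.96 ± 0.10 (SE; edgeR adjusted p = 5.8e-19). Reads at VIL1 were thus lower but not absent. The 5 tested genes on either side of VIL1 were not called, the nearest to the threshold being AT3G24460 (edgeR adjusted p = 0.054). Among relatives of VIL1, VEL1 rose slightly, with 77.9, 70.6 and 74.3 CPM in vil1-1 against 64.8, 63.5 and 65.7 CPM in Col-0 (log2 0.20 ± 0.05, edgeR adjusted p = 0.0044). VIN3, the cold-induced member, had 18 reads over the vil1-1 libraries and 3 over the Col-0 libraries, a depth-scaled ratio of 6.25 with an exact 95% interval of 1.82 to 33.1 that covers counting error only. VEL2 had 3 and 0 reads and VEL3 none in either genotype. The levels of COP1 and HY5 differed by less than could be called, with log2 changes of 0.08 ± 0.07 and 0.10 ± 0.09 (edgeR adjusted p = 0.5 and 0.47).

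Of the 21448 genes tested, 4500 were called at ZT6 (21%), 2223 of them higher in vil1-1 (10.4%) and 2277 lower (10.6%). The median log2 change over all genes was −0.01, but TMM scaling centres the bulk of the changes, so this cannot show whether either direction prevailed. With DESeq2 size factors 2346 genes were called higher and 2150 lower. Most changes were small: 3084 of the called genes (68.5%) moved by less than 1.5-fold, while 360 rose and 312 fell at least 2-fold. Where a list is written below with "none rose" or "none fell" at ZT6, at most 1 of its genes had an unadjusted edgeR p under 0.05 on that side and DESeq2 called none. Called genes were spread over the genome, at 20.5 to 21.8% of the genes tested on each nuclear chromosome.

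**Figure D1:**
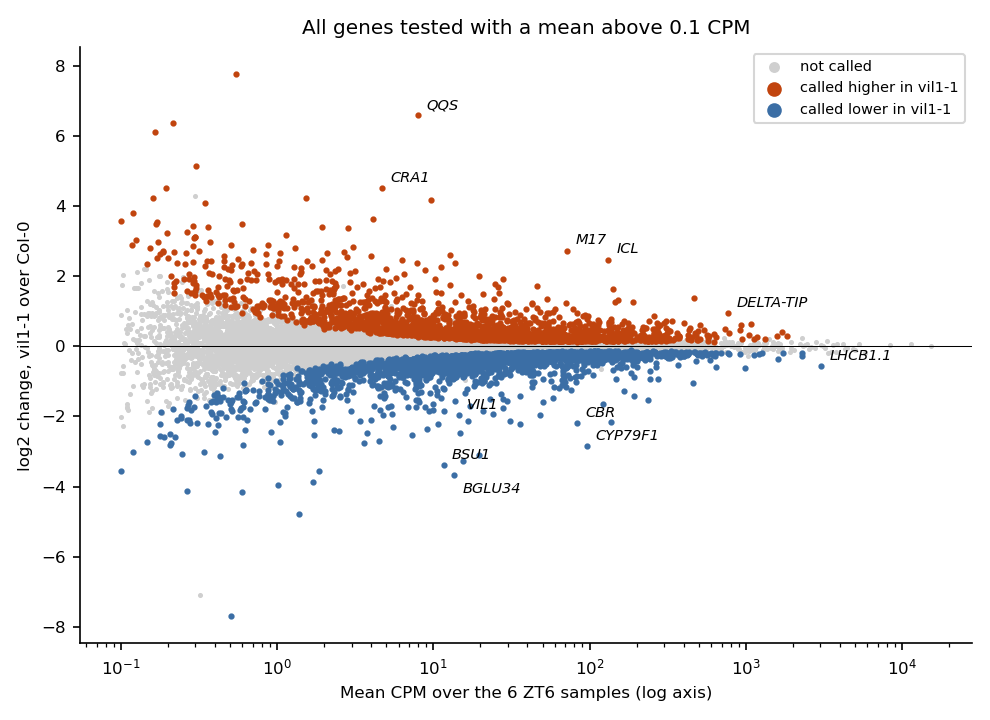
Log2 change of each gene tested, vil1-1 over Col-0 at ZT6 (vertical axis), against its mean CPM over the 6 libraries (horizontal log axis), for genes above 0.1 CPM. Called genes (2223 higher, 2277 lower) lie on both sides at every level, and VIL1 stands at −1.96; genes with no read in 1 genotype take their place from the fit's prior count.

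The largest changes among well-measured genes joined seed, storage and starvation genes on the higher side and glucosinolate genes on the lower side. QQS, an orphan gene linked to starch levels, had 14.2, 16.5 and 16.8 CPM in vil1-1, against 0.178, 0.221 and 0.0969 CPM in Col-0. That is 1331 reads against 14, and a log2 change of 6.58 ± 0.27 (edgeR adjusted p = 1.1e-17). Of its 10 nearest genes in the fit 8 had no read in either genotype, and the other 2, at under 1 CPM, were not called. At the other end, BGLU34, a myrosinase known from roots, had 2.07, 2.25 and 1.57 CPM in vil1-1 against 25.8, 26.1 and 24 CPM in Col-0 (log2 −3.66 ± 0.15, edgeR adjusted p = 7.8e-20). BSU1, which acts as a phosphatase downstream of the brassinosteroid receptor, had 2.23, 1.59 and 2.33 CPM against 20.7, 20.3 and 22.5 CPM (log2 −3.39 ± 0.16). Both genes were about an order of magnitude lower in every mutant library, while the BSU1 relatives BSL1, BSL2 and BSL3 changed by 0.05 to 0.10 and were not called. CBR, a cytochrome b5 reductase of the endoplasmic reticulum, had 30, 29.9 and 29.8 CPM in vil1-1 and 135, 139 and 135 CPM in Col-0 (log2 −2.19 ± 0.06, edgeR adjusted p = 3.2e-30), the smallest p among the genes named here. UMAMIT25, of an amino acid exporter family, was at 2.46, 2.37 and 1.93 CPM against 10, 8.14 and 7.85 CPM. ADS1 (AT1G06080), an acyl-lipid desaturase, rose by 1.77 ± 0.13 (edgeR adjusted p = 1.5e-10), TPX2 (AT1G65970), a peroxiredoxin, by 1.72 ± 0.16, and BGLU19, a beta-glucosidase, by 1.70 ± 0.22, all on the log2 scale.

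**Figure D2:**
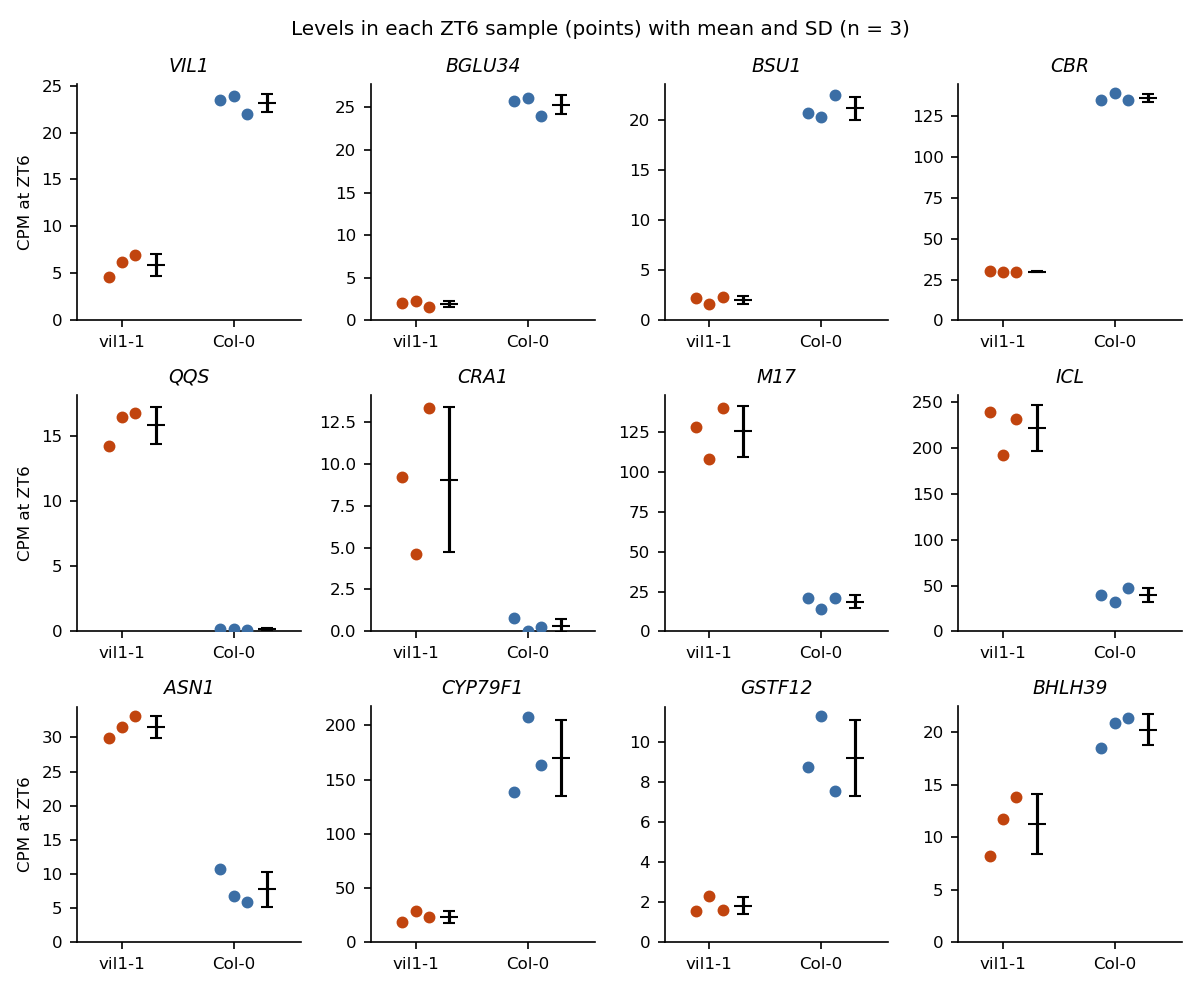
CPM of 12 genes in each ZT6 library (points), vil1-1 left and Col-0 right, with the mean and SD of 3 libraries beside them; each vertical axis is linear and starts at 0. The genotypes do not overlap in any of the 12 panels, as for VIL1 (4.62 to 6.95 against 22 to 23.9 CPM) and ASN1 (29.9 to 33.1 against 5.85 to 10.7 CPM).

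The pathway of aliphatic glucosinolates, the sulphur-rich defence compounds that Brassicaceae build from methionine, was lower throughout. All 22 genes tested of this list fell, against a background of 10.6% of all genes, with a median log2 change of −1.55 where the median of all genes was −0.01. Methionine is first deaminated and lengthened. BCAT4, which opens this chain elongation, had 10.9, 14.5 and 11.9 CPM in vil1-1 against 44.6, 73 and 59.6 CPM in Col-0 (log2 −2.23 ± 0.23, edgeR adjusted p = 1.5e-06). MAM1, the elongating synthase, had 43.8, 54.3 and 50.6 CPM against 196, 262 and 212 CPM (log2 −2.17 ± 0.17). Every vil1-1 library lay well under the lowest Col-0 library for both. IMD1, a dehydrogenase of the same cycle, fell by 1.64 ± 0.11 on the log2 scale, BAT5, which carries the keto acids into the plastid, by 1.57 ± 0.12, and BCAT3, a plastid aminotransferase, by 0.68 ± 0.06. In the core pathway, CYP79F1, the cytochrome P450 that commits the elongated amino acids, had 18.6, 29 and 23.1 CPM in vil1-1 and 139, 208 and 164 CPM in Col-0 (log2 −2.84 ± 0.19, edgeR adjusted p = 1.7e-06). CYP79F2, its near-identical neighbour with which it may share reads, fell by 2.14 ± 0.23. Of later steps, the glucosyltransferase gene AT2G31790 fell by 0.83 ± 0.06 and FMOGS-OX1, which oxidises the side chain, by 2.35 ± 0.23. The regulators moved less: MYB28, the main activator, had 36.9, 41.4 and 40.3 CPM against 47.5, 55.7 and 54.8 CPM, and was named after its values were seen (log2 −0.41 ± 0.09, edgeR adjusted p = 0.001).

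Indolic and shared glucosinolate genes were lower too, with 9 of 13 lower and 1 higher (median log2 −0.50). Of the shared steps, APK1, which makes the sulphate donor, had 33.5, 39.5 and 39.7 CPM in vil1-1 against 69.4, 82.3 and 73.2 CPM in Col-0 (log2 −0.99 ± 0.08, edgeR adjusted p = 4.2e-13). SUR1, the C-S lyase, fell by 0.87 ± 0.08, GGP1, which trims the glutathione conjugate, by 0.71 ± 0.09, and UGT74B1, a glucosyltransferase, by 0.50 ± 0.08. The 1 higher member was MYB51, an activator of the indolic branch, at 8.1, 9.18 and 9.84 CPM against 6.04, 6.37 and 7.17 CPM (log2 0.47 ± 0.15, edgeR adjusted p = 0.028). Its call was lost without vil1-1 replicate 2 or 3 or Col-0 replicate 1 or 2, with edgeR adjusted p of 0.082 to 0.11. Of 10 genes for myrosinases and glucosinolate breakdown 3 fell and 1 rose (median log2 −0.07). TGG2, a guard-cell myrosinase, had 19.6, 18.8 and 19.7 CPM against 38.1, 59.5 and 58.5 CPM (log2 −1.42 ± 0.22), whereas TGG1, the abundant form of the same cells, had 1070, 1080 and 1070 CPM against 1160, 1200 and 1010 CPM and was not called. ESM1, a specifier of breakdown products, fell by 0.37 ± 0.09. BGLU35, a close copy of BGLU34, changed by 0.23 ± 0.09 and was not called.

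Anthocyanin genes fell late in the pathway more than early. Of 10 genes for late enzymes and transport 7 fell and none rose (median log2 −1.52). DFR, the first committed enzyme, had 3.13, 4.44 and 3.09 CPM in vil1-1 against 9.51, 12.2 and 7.82 CPM in Col-0 (log2 −1.45 ± 0.20, edgeR adjusted p = 6.6e-07). GSTF12, which carries anthocyanin to the vacuole, had 1.57, 2.31 and 1.61 CPM against 8.77, 11.3 and 7.59 CPM (log2 −2.31 ± 0.24). Even the highest mutant library stood below the lowest Col-0 library for both. LDOX, UGT79B1, the glycosyltransferase gene AT4G14090 and the malonyltransferase AT5MAT fell by 1.58 to 1.97 on the log2 scale. The acyltransferase genes AT1G03940 and AT1G03495 and the glucosyltransferase BGLU10 changed by −0.18, 0.19 and 0.03 and were not called. Of 13 early flavonoid genes 5 fell (median log2 −0.32), among them PAL2, which opens the phenylpropanoid route, at 147, 162 and 178 CPM against 215, 222 and 222 CPM (log2 −0.44 ± 0.06). 4CL3, a ligase of that route, and CHIL, a chalcone isomerase relative, fell by 0.67 ± 0.12 and 0.48 ± 0.10. Of 14 regulators 4 fell and 2 rose. PAP1 (AT1G56650), the MYB activator of anthocyanin, had 1.45, 1.08 and 1.81 CPM against 3.39, 3.45 and 2 CPM (log2 −1.04 ± 0.33, edgeR adjusted p = 0.019). Its call was lost without vil1-1 replicate 1 or 2 or Col-0 replicate 1 or 2, with edgeR adjusted p of 0.059 to 0.13, and by DESeq2 (adjusted p = 0.051). EGL3, a partner of PAP1, fell by 0.63 ± 0.16. MYBL2, a repressor of the pathway, had 59, 55.5 and 52.1 CPM against 36.8, 25.2 and 31 CPM (log2 0.83 ± 0.11, edgeR adjusted p = 7.8e-06). LBD39, another repressor, rose by 0.42 ± 0.06 and MYB4 fell by 0.52 ± 0.11.

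**Figure D3:**
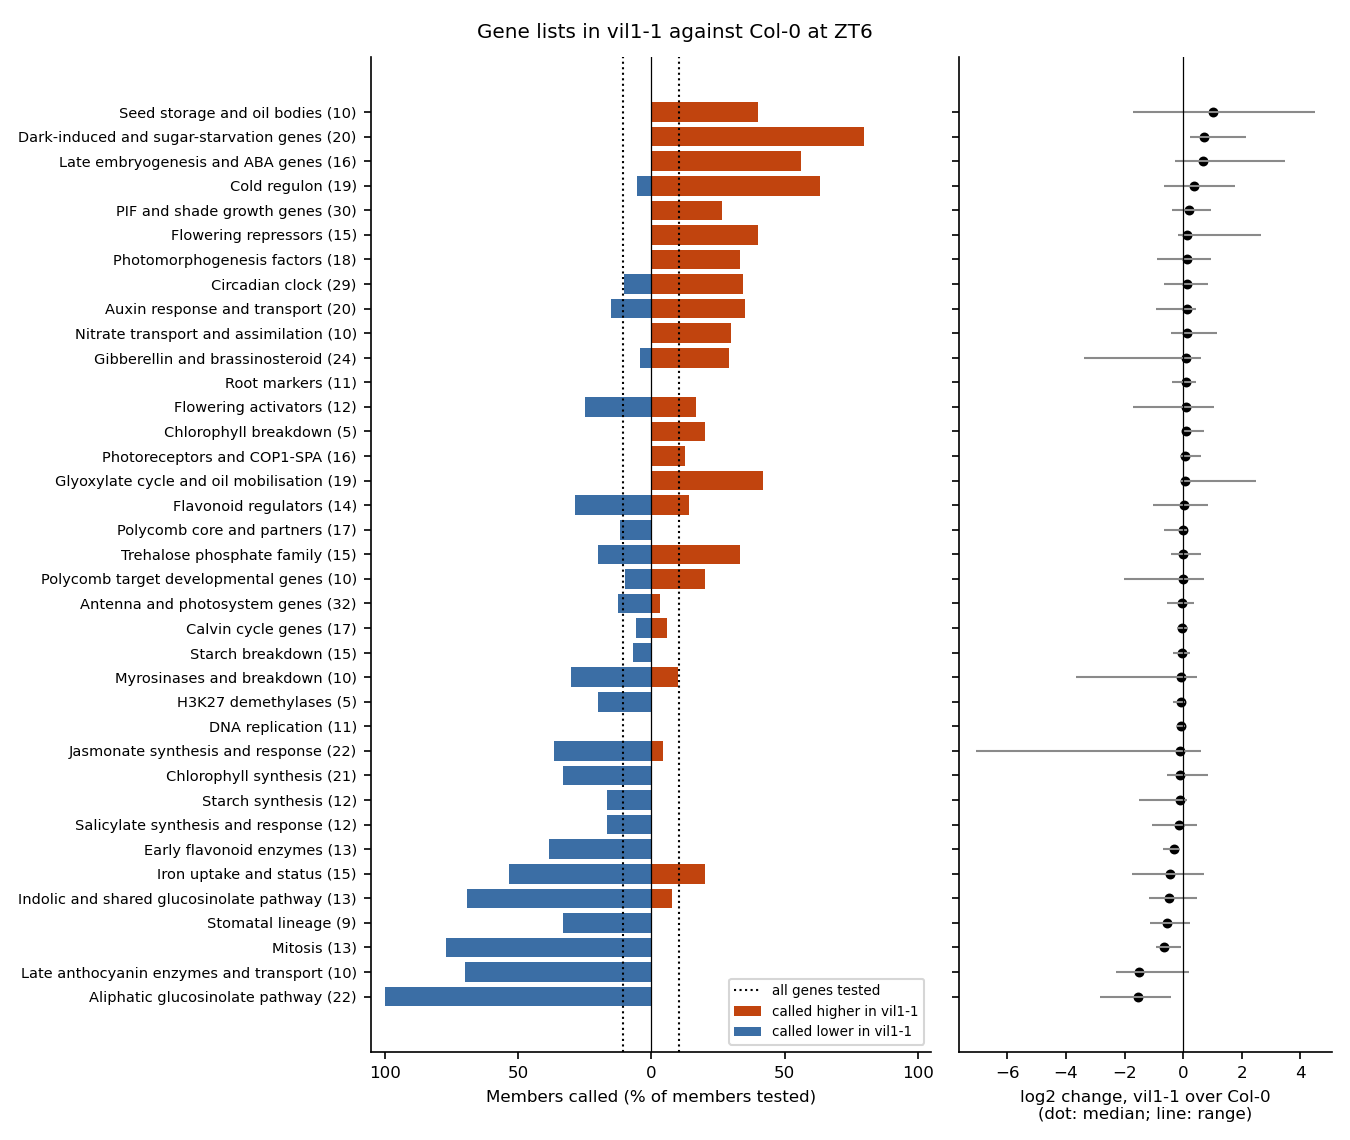
Left, percent of each list's tested members called higher (right of 0) or lower (left of 0) in vil1-1 at ZT6, with the number tested in brackets and dotted lines at the shares of all genes (10.4% and 10.6%). Right, median log2 change of each list and the range of its members; the lowest jasmonate member, PDF1.2, had no read in vil1-1 and its place depends on the fit's prior count. The aliphatic glucosinolate list stands lowest (median −1.55) and the seed storage list highest (1.03), the latter with albumin members that had almost no reads.

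Genes that plants switch on in darkness or when sugar runs short were higher in vil1-1 in the middle of the day. Of 20 such genes tested 16 rose and none fell, against 10.4% of all genes, with a median log2 change of 0.70. ASN1 (DIN6), the dark-induced asparagine synthetase, had 29.9, 31.6 and 33.1 CPM in vil1-1 against 10.7, 6.81 and 5.85 CPM in Col-0 (log2 1.99 ± 0.30, edgeR adjusted p = 7.8e-05). SEN1 (DIN1, AT4G35770), a senescence-linked dark marker, had 16.2, 12.8 and 14.8 CPM against 4.67, 2.39 and 2.42 CPM (log2 2.16 ± 0.35). BCAT2, which degrades branched-chain amino acids in mitochondria, had 10.1, 10.5 and 10.7 CPM against 2.77, 1.95 and 2.62 CPM (log2 2.07 ± 0.37). The mutant libraries all lay above the Col-0 libraries for these 3 genes. The dormancy-associated genes DRM1 and AT2G33830 rose by 1.33 ± 0.10 and 1.37 ± 0.12, BGAL4, a beta-galactosidase, by 1.07 ± 0.11, and AKINBETA1, a subunit of the energy-sensing kinase SnRK1, by 0.84 ± 0.09. Outside the list, THA1, a threonine aldolase, had 6.3, 8.25 and 8.28 CPM against 0.922, 0.309 and 0.517 CPM (log2 3.62 ± 0.55, edgeR adjusted p = 7.4e-05).

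The 250 bases before the transcription start of ASN1 and SEN1 are shown because a short element of sugar-repressed genes, TTATCC, stands in both (RefSeq annotation of TAIR10.1, 5′ to 3′ on the gene's strand). ASN1 covers chr3:17441432-17441681 on the minus strand and SEN1 chr4:16944628-16944877 on the plus strand. Capitals mark, in ASN1, the G-box CACGTG at −167 and TTATCC on its other strand at −80 joined to the telobox core AACCCTA at −75, which share a base, and in SEN1, TTATCC at −95 and −74, counted from the start.
ASN1: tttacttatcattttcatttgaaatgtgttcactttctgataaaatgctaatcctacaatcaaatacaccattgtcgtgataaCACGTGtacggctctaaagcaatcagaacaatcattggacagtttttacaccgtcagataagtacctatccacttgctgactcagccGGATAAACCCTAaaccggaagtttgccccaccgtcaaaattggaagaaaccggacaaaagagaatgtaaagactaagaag
SEN1: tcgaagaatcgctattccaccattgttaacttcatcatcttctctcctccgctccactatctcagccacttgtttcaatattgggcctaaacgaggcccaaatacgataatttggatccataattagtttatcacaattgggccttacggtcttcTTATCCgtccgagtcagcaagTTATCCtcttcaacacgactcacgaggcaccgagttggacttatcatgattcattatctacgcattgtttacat
Searched on both strands from 250 bases before to 50 after the start, TTATCC stood in 8 of the 20 dark-induced and sugar-starvation promoters (40%), in 20.6% of the promoters of all genes called higher, in 14.4% of those called lower, and in 15.4% of all 20712 promoters of protein-coding genes tested. The share was not particular to that list. TTATCC stood in 7 of 17 Calvin cycle promoters (41.2%) and 12 of 32 antenna and photosystem promoters (37.5%), and in lower shares of most other lists. Among genes that rose at least 2-fold it stood in 16.4%. Without the 50 bases after the start it stood in 6 of the 20 (30%). A match describes these letters only, and no share was tested.

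Carbohydrate genes around this list moved in both directions. Of 15 trehalose phosphate genes 5 rose and 3 fell: the class II genes TPS6, TPS9, TPS10 and TPS11 rose by 0.45 to 0.61 on the log2 scale, while TPS7 changed by 0.00 ± 0.05 and was not called. Of 12 starch synthesis genes 2 fell (16.7%, against 10.6% of all genes). GBSS1, the amylose synthase, had 3.76, 4.47 and 4.02 CPM in vil1-1 against 11.7, 14.1 and 9.98 CPM in Col-0 (log2 −1.52 ± 0.15, edgeR adjusted p = 3.6e-08), and SS3 (AT1G11720), a starch synthase, fell by 0.20 ± 0.06. Of 15 starch breakdown genes LDA, a debranching enzyme, fell (log2 −0.35 ± 0.07), the 1 call by edgeR. In that list 2 genes were higher at an unadjusted edgeR p under 0.05, and DESeq2 called 1 higher. NIA1 and NIA2, the nitrate reductases, rose by 0.53 ± 0.10 and 0.37 ± 0.07, and NRT1.8, a nitrate transporter, by 1.17 ± 0.27, the 3 called genes of 10 for nitrate.

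Some genes of the maturing seed and of oil use were higher in the week-old mutant seedlings. Of 10 seed storage and oil body genes that could be tested 4 rose, with a median log2 change of 1.03 (1.67 without Col-0 replicate 3). That median takes in albumin genes with 0 to 1 read in each library, whose log2 changes rest on almost no reads. CRA1, the cruciferin storage globulin, had 236, 154 and 331 reads in vil1-1 and 26, 0 and 8 in Col-0, a ratio of 22.1 with an exact 95% counting interval of 15.7 to 32.1 (edgeR adjusted p = 3.2e-05). OLEO1, an oil body protein, had 2.86, 1.8 and 2.13 CPM against 0.327, 0.442 and 0.84 CPM (log2 2.05 ± 0.40). PER1, a peroxiredoxin of dormant seeds, had 30.4, 25.4 and 31.5 CPM against 16.5, 11.5 and 13 CPM (log2 1.07 ± 0.17). Libraries of the same genotype spread widely for CRA1, yet all 3 mutant libraries exceeded all 3 of Col-0. The albumin genes SESA2, SESA3 and SESA5 were at 0 to 1 read in each library, and 2 members with too few reads to test were CRB, a cruciferin, with 0 reads in vil1-1 against 2 in Col-0, and the albumin SESA4, with 2 against 4. The 10 seed and embryo markers, which overlap this list, summed to 12.2 to 23.3 CPM in vil1-1 and 2.61 to 5.20 CPM in Col-0, with 3 of 7 tested called higher and 4 and 2 members at 0 (exact two-sided permutation p = 0.1, the smallest that 3 against 3 allow). In whole seedlings, more cells of a kind and more RNA per cell cannot be told apart.

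Upstream stretches of CRA1 and OLEO1 are shown because the RY element CATGCA, known from seed promoters, recurs in them (RefSeq, TAIR10.1, gene strand). CRA1 covers chr5:17758337-17758586 on the minus strand, with CATGCA at −181 and −164 and TTATCC at −18 in capitals. OLEO1 covers chr4:12900180-12900429 on the plus strand, with CATGCA on either strand at −125, −114 and −80, CACGTG at −95 and −61, and the abscisic acid element ACGTGTC at −157 and at −63, where it overlaps the last CACGTG.
CRA1: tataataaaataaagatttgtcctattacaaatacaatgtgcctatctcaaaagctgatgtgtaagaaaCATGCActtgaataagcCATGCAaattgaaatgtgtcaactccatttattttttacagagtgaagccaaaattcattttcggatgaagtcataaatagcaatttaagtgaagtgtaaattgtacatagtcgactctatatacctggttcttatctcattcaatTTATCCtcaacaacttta
OLEO1: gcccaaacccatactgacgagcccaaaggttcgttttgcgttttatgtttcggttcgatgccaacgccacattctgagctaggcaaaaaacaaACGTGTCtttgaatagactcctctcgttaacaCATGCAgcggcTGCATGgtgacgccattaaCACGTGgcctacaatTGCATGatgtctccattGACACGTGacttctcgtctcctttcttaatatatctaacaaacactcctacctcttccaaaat
CATGCA stood in all 10 promoters of the tested seed storage and oil body genes and in 8.91% of all promoters. It stood in 23.1% of the 347 promoters of genes that rose at least 2-fold. In the 300 promoters of genes that fell at least 2-fold its share was 14%, also above that of all promoters. The list was chosen for seed genes, so its share repeats what such promoters are known for. ACGTGTC stood in 62.5% of the promoters of late embryogenesis and abscisic acid genes and in 5.06% of all.

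Of 16 late embryogenesis and abscisic acid (ABA) genes 9 rose and none fell (median log2 0.66). M17, a late embryogenesis protein, had 128, 108 and 140 CPM in vil1-1 against 21, 14 and 20.7 CPM in Col-0 (log2 2.73 ± 0.28, edgeR adjusted p = 6.9e-07). EM1 and EM6, which protect drying embryos, rose by 1.88 ± 0.36 and 1.08 ± 0.22, and CYP707A2, which breaks down ABA, by 0.62 ± 0.14. BETA-TIP, a seed tonoplast aquaporin, had 17.8, 15.8 and 15.2 CPM against 4.49, 4.55 and 3.94 CPM (log2 1.91 ± 0.23). Of 19 genes for the glyoxylate cycle and oil mobilisation 8 rose, but the median was 0.06. ICL, isocitrate lyase, had 240, 193 and 232 CPM against 39.3, 32.2 and 47.4 CPM (log2 2.47 ± 0.25), and MLS, malate synthase, 47.7, 42.8 and 42.7 CPM against 11.5, 9.06 and 14.3 CPM (log2 1.91 ± 0.29). Both enzymes of the cycle proper were thus several fold higher, PCK1, which leads on to sugar, rose by 0.71 ± 0.08, and ACX4, an acyl-CoA oxidase, by 0.46 ± 0.06. The lipases and most beta-oxidation genes changed by less than 0.3. Of 19 genes of the cold regulon 12 rose and 1 fell (median 0.36). KIN1 had 19.3, 16.9 and 23.3 CPM against 6.87, 6.37 and 4.33 CPM (log2 1.76 ± 0.20), COR15B rose by 1.27 ± 0.10, COR27 by 0.92 ± 0.10 and COR413IM1 by 0.68 ± 0.10, while the upstream factors CBF1, CBF2 and CBF3 were not called.

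Flowering-time genes, where VIL1 is best known, gave a split picture. Of 15 repressors 6 rose and none fell. FLC had 15.1, 15.1 and 15.3 CPM in vil1-1 against 7.79, 7.52 and 9.31 CPM in Col-0 (log2 0.88 ± 0.10, edgeR adjusted p = 3e-09). MAF5, an FLC relative, had 3.05, 3.66 and 4.14 CPM against 0.476, 0.796 and 0.485 CPM (log2 2.66 ± 0.25), and its neighbour MAF4 rose by 1.51 ± 0.18, while MAF2 and MAF3 in the same gene cluster changed by 0.05 and 0.10 and were not called. These 4 genes are alike in sequence, and reads could be split between them. SNZ, an AP2-type repressor, had 40.7, 38.2 and 38.9 CPM against 13.7, 13.8 and 13.3 CPM (log2 1.53 ± 0.09). Of 12 activators tested 3 fell and 2 rose. SOC1, which FLC represses, had 3.21, 3.36 and 3.66 CPM against 7.85, 8.18 and 6.17 CPM (log2 −1.11 ± 0.13), and AGL17, another MADS factor, fell by 1.32 ± 0.31. FT, the mobile flowering signal, had at most 0.274 CPM in any of the 6 libraries and was not called. AGL19, not tested for low reads, had 4 reads against 32.

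Of 20 genes known as Polycomb targets in development 10 had enough reads to be tested: 2 rose (20%) and 1 fell (10%), where 10.4% and 10.6% of all genes did. KNAT1, a meristem homeobox gene, had 20.3, 21.4 and 19.4 CPM in vil1-1 against 15.2, 15.7 and 15.4 CPM in Col-0 (log2 0.40 ± 0.08), and SEP3, a floral MADS gene, fell by 2.01 ± 0.43 at no more than 1.46 CPM in any library. Of the 17 genes of the Polycomb complexes and their partners 2 fell and none rose (median 0.00). Those that fell made up 11.8%, close to the 10.6% of all genes, and DESeq2 called 1 lower. EMF1, a plant-specific Polycomb protein, had 14.4, 14.5 and 13.2 CPM against 20.3, 22.2 and 23.5 CPM (log2 −0.65 ± 0.08, edgeR adjusted p = 5.3e-08). CLF and SWN, the methyltransferases of the complex, changed by −0.14 ± 0.06 and 0.09 ± 0.07. The demethylase gene AT5G46910 fell by 0.35 ± 0.09, the 1 call among 5 demethylases.

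Of 13 mitotic genes 10 fell and none rose (median log2 −0.64). AUR2, a mitotic Aurora kinase, had 8.61, 8.28 and 8.68 CPM in vil1-1 against 15, 16.3 and 17.3 CPM in Col-0 (log2 −0.93 ± 0.13, edgeR adjusted p = 4e-07). CDKB2;2, CYCB1;2 and AUR1 fell by 0.70, 0.65 and 0.58. None of the 11 DNA replication genes was called by edgeR or by DESeq2, and 1 had an unadjusted edgeR p under 0.05 (median log2 −0.09). Of 7 markers of dividing cells, which overlap the mitotic list and so repeat its genes, 6 fell. Their sum was 127 to 134 CPM in vil1-1 and 174 to 201 CPM in Col-0 (exact two-sided permutation p = 0.1). Stomatal lineage genes were lower in 3 of 9 cases (median −0.55, or −0.27 without Col-0 replicate 3): SPCH, which starts the lineage, had 4.66, 5.34 and 4.26 CPM against 6.9, 8 and 9.4 CPM (log2 −0.76 ± 0.16), and EPF2, a peptide of the lineage, fell by 1.12 ± 0.28, while FAMA and MYB60, of guard cells, were not called. Their sum was 40.7 to 47.4 CPM in vil1-1 and 52.4 to 60.9 CPM in Col-0 (exact two-sided permutation p = 0.1). None of the 11 root markers of the gene list was called by edgeR or DESeq2, and 1 had an unadjusted edgeR p under 0.05 (log2 changes of −0.37 to 0.42). The part of cell composition in these results was not tested.

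Iron genes moved in opposite ways by role. Of 15 tested 8 fell and 3 rose (median −0.46). BHLH39, a factor induced by iron shortage, had 8.18, 11.7 and 13.8 CPM in vil1-1 against 18.5, 20.9 and 21.3 CPM in Col-0 (log2 −0.85 ± 0.14, edgeR adjusted p = 3e-05). BTS, an iron-binding E3 ligase, had 119, 145 and 140 CPM against 234, 261 and 251 CPM (log2 −0.88 ± 0.06), and OPT3, a phloem iron carrier, fell by 0.72 ± 0.09 and BHLH38 by 1.17 ± 0.20. FER1 and FER4, ferritins that store iron, rose by 0.71 ± 0.13 and 0.63 ± 0.10, and FSD1 by 0.22 ± 0.06. The root uptake genes IRT1 and FRO2 were not called (edgeR adjusted p = 0.48 and 0.96).

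The clock, auxin, gibberellin and brassinosteroid, and jasmonate lists held genes called in both directions. By edgeR the other light and hormone lists held calls in 1 direction. Of all genes tested 10.4% rose and 10.6% fell. Of 30 genes for PIF factors and shade growth 8 rose and none fell (median 0.19), among them EXPA11, EXPA1 and XTH15 of the cell wall and IAA29, at log2 0.34 to 0.74. Of 18 photomorphogenesis factors 6 rose: BBX21 by 0.41 ± 0.05, HFR1 by 0.64 ± 0.10, PAR1 by 0.73 ± 0.14 and ELIP2 by 0.96 ± 0.21. PHYA, the far-red photoreceptor, had 164, 164 and 157 CPM in vil1-1 against 116, 101 and 101 CPM in Col-0 (log2 0.61 ± 0.06, edgeR adjusted p = 3.6e-10). CRY2, a blue-light photoreceptor, rose by 0.20 ± 0.05, and the other 14 photoreceptor and COP1-SPA genes were not called by edgeR. The 2 that rose made up 12.5% of the 16, close to the 10.4% of all genes. DESeq2 called 4 of these 16 genes higher, and 5 were higher at an unadjusted edgeR p under 0.05. Of 29 clock genes 10 rose and 3 fell, with RVE4, RVE7, BOA and CDF2 at 0.39 to 0.64. CCA1, a morning factor, had 1.96, 2.13 and 2.85 CPM against 3.92, 4.02 and 2.94 CPM (log2 −0.65 ± 0.14). In the auxin list 7 of 20 rose and 3 fell: IAA2, IAA7, PIN4 and AUX1 rose by 0.21 to 0.44, and GH3.3, which conjugates auxin, fell by 0.68. In the gibberellin and brassinosteroid list 7 of 24 rose and BSU1 alone fell, with CPD, BR6OX2, ROT3 and RGA at 0.20 to 0.44. Jasmonate genes fell in 8 of 22 cases and 1 rose: AOC1, a cyclase of its synthesis, had 4.62, 3.72 and 3.54 CPM against 13.3, 12.8 and 8.47 CPM (log2 −1.54 ± 0.14), CORI3, VSP1 and OPCL1 fell by 1.83, 0.76 and 0.48, and LOX3 rose by 0.60. PDF1.2, a defensin, had no read in vil1-1 and 56, 6 and 0 in Col-0, and was not called (edgeR adjusted p = 0.073). Of 12 salicylate genes 2 fell (16.7%, against 10.6% of all genes) and none rose, with PR5 at log2 −1.08 ± 0.24.

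Photosynthesis genes, the most abundant transcripts, were nearly level. Of 32 antenna and photosystem genes 4 fell and 1 rose (median −0.05), and of 17 Calvin cycle genes 1 fell and 1 rose (median −0.05). LHCB1.1, an antenna protein with near-identical copies, had 2350, 2430 and 2530 CPM in vil1-1 against 3720, 3670 and 3470 CPM in Col-0 (log2 −0.57 ± 0.12, edgeR adjusted p = 0.0013), the loss of most CPM of any called gene with a symbol, while its copies LHCB1.2 and LHCB1.3 were not called, so the split of reads between them is uncertain. Among the next in CPM lost were GSTF9, a glutathione transferase, MS2, a methionine synthase, and GSR2, a glutamine synthetase, at log2 −0.61, −1.04 and −0.59. Of 21 chlorophyll synthesis genes 7 fell and none rose. Those that fell include CAO (AT1G44446, log2 −0.44 ± 0.05), GUN4 (−0.54 ± 0.07) and CRD1 (−0.24 ± 0.06). NYC1, which starts chlorophyll b breakdown, had 173, 166 and 168 CPM against 112, 97.8 and 102 CPM (log2 0.70 ± 0.06, edgeR adjusted p = 7.6e-12). Most CPM were gained by DELTA-TIP, a tonoplast aquaporin, at 1110, 989 and 945 CPM against 593, 436 and 551 CPM (log2 0.94 ± 0.08), followed by the aquaporin TIP2, the germin-like GER3, TCTP, the catalase CAT3 (AT1G20620) and the aquaporin PIP1B.

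The effect of vil1-1 at ZT6 was next set against that at ZT0. The difference of the 2 effects was called for 480 genes, 266 with a higher effect at ZT6 (1.24% of genes) and 214 with a lower one (0.998%), and 407 of the 480 were among the 4500. That count was 243 to 598 when 1 library was left out: 269 and 301 without vil1-1 ZT6 replicate 1 or 2, 304 and 308 without vil1-1 ZT0 replicate 1 or 3, 243 and 299 without Col-0 ZT6 replicate 2 or 3, and 278 without Col-0 ZT0 replicate 2. It was 1121 when the 4 groups compared were fitted by themselves. At ZT0 itself 2139 genes were called, and 1276 of them were also called at ZT6 in the same direction, 28.4% of the ZT6 calls and 59.7% of the ZT0 calls, while 16 went opposite ways.

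In the dark-induced and sugar-starvation list 8 of 20 genes had a higher effect at ZT6 than at ZT0, and 16 rose at ZT6 but 1 at ZT0. ASN1 averaged 546 CPM in vil1-1 and 391 CPM in Col-0 at ZT0 (log2 0.48), when it stood far above its ZT6 level, and its effect differed by 1.51 ± 0.38 (edgeR adjusted p = 0.043). For SEN1 the effects were 2.16 at ZT6 and 0.48 at ZT0 and for BCAT2 2.07 and 0.30, with adjusted p of 0.042 and 0.04 for the differences. These 3 calls lie close to the threshold. With 1 of the 12 libraries left out the adjusted p was 0.059 to 0.14, apart from vil1-1 ZT0 replicate 2 for all 3 genes, Col-0 ZT0 replicate 3 for SEN1 and BCAT2 and Col-0 ZT6 replicate 1 for ASN1 and SEN1. GBSS1, at 149 CPM in vil1-1 and 136 CPM in Col-0 at ZT0, had effects of −1.52 at ZT6 and 0.13 at ZT0 (difference −1.65 ± 0.17, edgeR adjusted p = 2.4e-06). In the aliphatic glucosinolate list 22 genes fell at ZT6 and 7 at ZT0, and 7 had a lower effect at ZT6, GSTU20 (−1.53 and 0.09) and MAM3 (−1.64 and 0.33) among them. In the indolic and shared list 6 of 13 had a lower effect at ZT6, APK1 and SUR1 among them. Much of that pathway was low at ZT0 in both genotypes: MAM1 was at 0.746 CPM in vil1-1 and 8.27 CPM in Col-0, a log2 change of −3.46. In the DNA replication list 7 genes fell at ZT0, and the difference between the times was called for 3, the helicase subunits MCM3, MCM4 and MCM7. For QQS, BGLU34, VIL1, ICL and M17 the effects at ZT6 and ZT0 were 6.58 and 6.38, −3.66 and −3.80, −1.96 and −1.67, 2.47 and 2.15, and 2.73 and 2.19, and none of these differences was called (edgeR adjusted p of 0.37 to 0.93).

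The effect of vil1-1 was also compared between the cop1-4 background and Col-0. The effect of vil1-1 in cop1-4 minus that in Col-0, both at ZT6, was called for 3273 genes, 1879 with a higher value (8.76% of genes) and 1394 with a lower one (6.5%), and 1923 of the 4500 genes were among them. In cop1-4 itself vil1-1 changed 3827 genes, of which 944 moved as in Col-0 (24.7% of the cop1-4 calls and 21% of the Col-0 calls) and 331 the opposite way. The 2 differences share the vil1-1 and Col-0 libraries of ZT6.

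**Figure D4:**
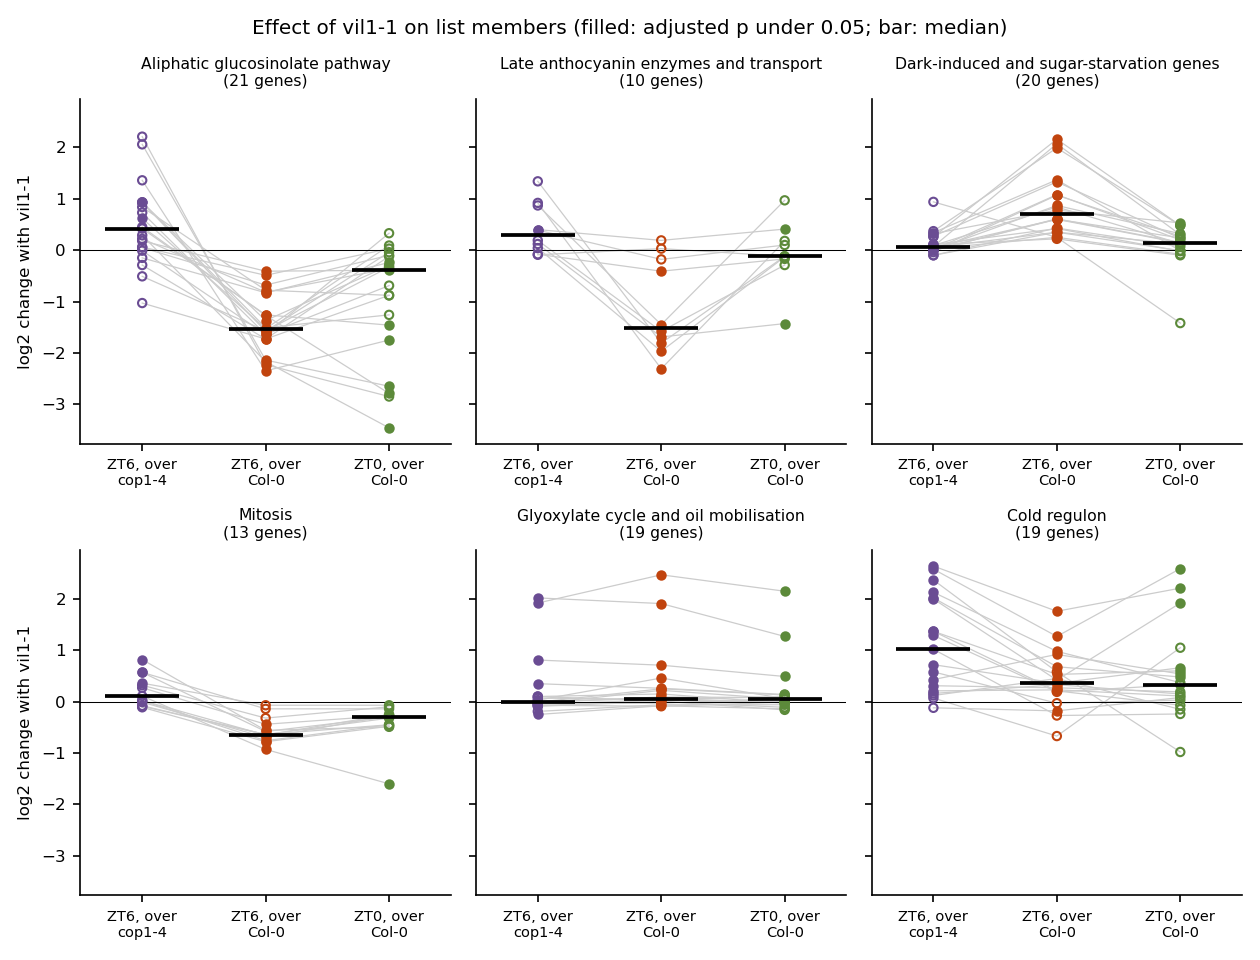
Log2 effect of vil1-1 on the members of 6 lists (vertical axis), as vil1-1cop1-4 over cop1-4 at ZT6, vil1-1 over Col-0 at ZT6 and vil1-1 over Col-0 at ZT0; grey lines join a gene, filled points are called and bars are medians. CYP79F1 is left out of the first panel, since it had almost no reads in cop1-4 and at ZT0. The medians of the glucosinolate, anthocyanin and mitotic lists lie below 0 over Col-0 at ZT6 and above 0 over cop1-4, and that of the cold regulon lies above 0 in all 3, with single members on either side.

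The aliphatic glucosinolate list fell in 22 of 22 cases in Col-0, while in cop1-4 the called members were 2 that rose, and 17 members had a higher effect in cop1-4. Levels of the pathway were low there in both lines: MAM1 averaged 0.67 CPM in vil1-1cop1-4 and 0.578 CPM in cop1-4, and CYP79F1 0.0103 and 0 CPM. A higher effect in cop1-4 was also called for 7 of the 10 late anthocyanin genes and for 10 of the 13 mitotic genes. Of the dark-induced and sugar-starvation list 14 of 20 had a lower effect in cop1-4, where 1 rose, and BCAT2 averaged 70 CPM in vil1-1cop1-4 and 66.2 CPM in cop1-4 (log2 0.07). BSU1 changed direction, at 6.34 CPM in vil1-1cop1-4 against 0.722 CPM in cop1-4 (log2 3.12), so the effects differed by 6.51 ± 0.27 (edgeR adjusted p = 1.6e-21). FLC, MAF4 and SNZ had lower effects in cop1-4 (log2 −0.04, 0.02 and 1.07 there), whereas MAF5 rose in cop1-4 by 2.33 and its difference was not called (edgeR adjusted p = 0.63). QQS rose in both backgrounds, to 13.4 CPM in vil1-1cop1-4 against 1.95 CPM in cop1-4, a log2 change of 2.77 there and of 6.58 in Col-0 (difference −3.81 ± 0.44, edgeR adjusted p = 3.4e-07). In the cold list 10 of 19 genes had a higher effect in cop1-4 and 1 a lower one, with COR15B at 2.58 in cop1-4 and 1.27 in Col-0 and COR413IM1 at 2.02 and 0.68. M17 rose by 4.71 in cop1-4 and by 2.73 in Col-0 (edgeR adjusted p of the difference 0.027), and BGLU34 fell by 3.53 and 3.66 (difference not called).

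Several of the genes named here overlap another annotated gene in the RefSeq annotation, and the sources used here do not give the strand setting of the count, so reads of the 2 genes may not be told apart. A call of 146 of the 178 named genes called held under every alternative tried. The other calls are described singly only where their libraries are given, apart from CP1, CKX5 and MIOX4. At ZT6 the call of CP1 ended without Col-0 replicate 1 (edgeR adjusted p = 0.056). That of CKX5 ended without Col-0 replicate 3 or vil1-1 replicate 2 or 3 (0.05 to 0.069), and that of MIOX4 without Col-0 replicate 3 or vil1-1 replicate 2 (0.058 to 0.068). The genes that overlap another include ASN1, BCAT2, BCAT4, AK3, GSTF12, THA1, TPX2, BETA-TIP, BGLU19, DELTA-TIP, COR15B, OLEO1, AUR2, CPD and FLC. Near-identical copies that may share reads are CYP79F1 and CYP79F2, COR15A and COR15B, BGLU34 and BGLU35, and the LHCB1 and MAF genes.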

How the data were processed

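RNA of whole Arabidopsis seedlings was extracted with a plant RNeasy kit and made into libraries with a directional NEBNext kit, per the labels' protocols. The submitters' processing notes name FastQC, STAR, edgeR and TAIR10. The deposited files hold the authors' raw read counts per gene, 1 file per sample with 32678 genes. The counting tool and its strand setting are not given in the sources used here. The 5 closing lines name no gene and were left out of library sizes. In the 6 libraries compared, reads outside genes made up 0.704 to 0.938% of each file's total, ambiguous reads 0.788 to 0.821% and reads placed more than once 3.21 to 4.35%. No replicates were merged, since replicate pairs of a genotype differed by 2.29 to 4.65 times the sampling noise (chi-square per degree of freedom).

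Counts of all 27 samples in 9 groups were fitted with edgeR 4.0.16 (R 4.3.3, limma 3.58.1), with TMM scaling, its default filter on low counts and 1 coefficient per group, by the robust quasi-likelihood test with Benjamini-Hochberg adjustment at 0.05. The filter kept 21448 genes, 209 of which had no read in the 6 libraries. Standard errors are the log2 change divided by the square root of F. DESeq2 1.42.0 was an alternative, as were other scalings, no filter, fits of fewer groups, a replicate block and leaving out each library. The code was tested on simulated counts. Samples were grouped by their labels.

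The members and gene lists were chosen with earlier results of these data known. Genes were named by rule: the VIL1 family, COP1 and HY5; the 12 largest called changes each way among genes with a symbol, a mean of at least 5 CPM and no overlap of the genotypes; up to 4 called genes each way per list, or all members of lists of up to 12; the 6 largest differences each way between times and between backgrounds; and the 6 largest gains and losses in CPM. Neighbours, close copies, low-read genes and a few pathway genes (MYB28, CLF, SWN, IRT1, FRO2, the CBF genes, FT and PDF1.2) were named after their values were seen. Gene coordinates and promoters are those of RefSeq TAIR10.1, matched by locus. Of 646 genes on lists or named, 162 overlap another annotated gene there, 15 of them on the same strand.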

Additional observations from a re-analysis of the deposited data

Results flagged for a closer look

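Each result here is a difference between 2 effects of vil1-1 that passed the test of the difference itself (edgeR, adjusted over all genes), on the log2 scale. Groups of 3 libraries were not searched for single libraries that stand apart.

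Between the times, the effect at ZT6 exceeded that at ZT0 by 2.56 for THA1 (3.62 and 1.06), by 1.78 for GSTF3, a glutathione transferase (2.23 and 0.45), by 1.76 for BCAT2, by 1.68 for SEN1, by 1.54 for TPX2 (AT1G65970; 1.72 and 0.18) and by 1.51 for ASN1. The difference was −2.12 for CP1 (AT4G36880), a cysteine proteinase, with effects of 1.11 at ZT6 and 3.23 at ZT0. It was −1.97 for MAM3, −1.65 for GBSS1 and −1.62 for GSTU20. For CKX5, a cytokinin oxidase, it was −1.5 (0.52 at ZT6 and 2.02 at ZT0), and for SBP2, a selenium-binding protein, −1.48 (−0.92 and 0.57). At ZT0 itself the effects of GSTF3, BCAT2, SEN1, TPX2, ASN1, MAM3, GBSS1 and GSTU20 were not called. Leaving out Col-0 ZT6 replicate 2 or 3 or vil1-1 ZT6 replicate 1 ended the call of GSTF3 (edgeR adjusted p of 0.053 to 0.075). Leaving out Col-0 ZT0 replicate 2 or Col-0 ZT6 replicate 3 ended that of CP1 (0.06 to 0.065). That of THA1 ended without any 1 of the 12 libraries other than Col-0 ZT0 replicate 3 and vil1-1 ZT0 replicate 2 (0.056 to 0.14).

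Between the backgrounds, the effect in cop1-4 exceeded that in Col-0 by 6.51 for BSU1 (3.12 and −3.39), by 4.45 for BCAT4 (2.21 and −2.23), by 4.36 for AK3, an aspartate kinase (2.23 and −2.12), and by 4.2 for CYP79F2 (2.06 and −2.14). In cop1-4 the effects of BCAT4, AK3 and CYP79F2 were not themselves called (edgeR adjusted p of 0.36, 0.29 and 0.079), and CYP79F2, the highest of the 3, averaged 0.612 CPM in vil1-1cop1-4 and 0.128 CPM in cop1-4. It did so by 3.36 for GSTL1, a lambda glutathione transferase (3.07 and −0.29, the second not called), and by 2.76 for CYP71A12, of camalexin-type indole metabolism (1.03 and −1.73). The difference was −3.81 for QQS (2.77 and 6.58), −3.17 for THA1 (0.45 and 3.62) and −2.48 for MIOX4, a myo-inositol oxygenase (−0.55 and 1.93). It was −2 for BCAT2 (0.07 and 2.07), −1.9 for SEN1 (0.26 and 2.16) and −1.62 for ASN1 (0.37 and 1.99). The effects of THA1, BCAT2, SEN1 and ASN1 in cop1-4 were not called, and the differences of SEN1 and ASN1 lost their calls when the 4 groups compared were fitted by themselves (edgeR adjusted p of 0.058 and 0.083). The call of AK3 ended without cop1-4 replicate 1 or 2 or vil1-1cop1-4 replicate 1 (edgeR adjusted p of 0.073 to 0.25). That of BCAT4 ended without any library of either cop1-4 group, Col-0 replicate 3 or vil1-1 replicate 1 or 3 (0.061 to 0.15). Both genes also lost the call with no filter on low counts and when the 4 groups compared were fitted by themselves. BCAT4 lost it with upper-quartile scaling as well.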

How the results depend on the processing

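The 4500 calls at ZT6 became 4375 to 4564 with other scalings, no filter or the 24 samples without hy5-215. They were 4478 with DESeq2 and 5865 in a fit of the 6 compared samples alone. With 1 library left out they were 3311 to 4189 (1621 to 2161 higher, 1678 to 2028 lower). With a replicate block they were 4423, and 5622 in the 6 samples. Deviations of same-numbered vil1-1 and Col-0 libraries at ZT6 correlated at 0.00785, −0.000741 and −0.019, within the −0.0234 to 0.0244 of all pairs of replicates. With 3 libraries per group this cannot show whether same-numbered libraries shared a culture. The 480 differences between times became 1121 (599 higher, 522 lower) when the 4 groups compared were fitted by themselves and 243 to 598 with 1 library left out (127 to 373 higher, 116 to 225 lower); the cause was not tested. The 3273 between backgrounds became 2310 to 3570 with 1 library left out. Of 178 named genes called, 146 kept call and direction under every alternative, and none of 4276 values of named genes reversed. List medians moved beyond their spread only with 1 library left out: DNA replication −0.13 to −0.08, flavonoid regulators −0.02 to 0.07 (reversed without Col-0 replicate 2), flowering repressors 0.12 to 0.17, jasmonate −0.17 to −0.07, late embryogenesis 0.63 to 0.76, myrosinases −0.13 to −0.03 and seed storage 0.89 to 1.67. Without the 50 bases after the start, motif shares in genes called higher were 9.91% (G-box), 7.07% (ACGTGTC), 12% (evening element), 17.3% (TTATCC), 10.5% (CATGCA) and 3.17% (telobox). In genes called lower they were 8.17% (G-box), 10.3% (evening element), 12.1% (TTATCC), 7.77% (CATGCA) and 8.12% (telobox). The shorter window holds fewer letters. In all genes tested it gave 7.44% (G-box), 4.28% (ACGTGTC), 10.2% (evening element), 13.1% (TTATCC), 7.92% (CATGCA) and 5.24% (telobox). Genes with few reads, such as VIN3 and the albumins, are limited by depth.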

Other observations

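Groups of genes were also formed from the product names in the annotation, after the values were seen, and are described with no test. Genes with the word ribosomal in their product name were lower in vil1-1 at ZT6 by small steps. That match also takes in genes such as RRP4, of ribosomal RNA processing, so not every member encodes a ribosomal protein. Of 374 tested 183 fell (48.9%) and 9 rose, where 10.6% and 10.4% of all genes did, with a median log2 change of −0.18. Together they held 4.23 to 4.39% of the CPM in vil1-1 and 4.78 to 4.95% in Col-0. At ZT0 7 fell and 4 rose (median −0.03), and in cop1-4 25 fell and 23 rose (median 0.03). The effect was called higher in cop1-4 than in Col-0 for 150 of them. Of 12 genes of the TCP-1/cpn60 chaperonin family, which folds proteins in the cytosol and in plastids, 9 fell, and of 48 translation initiation factors 17 fell and 5 rose (medians −0.19 and −0.11).

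The telobox core AACCCTA, known from promoters of ribosomal protein genes, stood in 148 of the 374 promoters of this ribosomal group (39.6%). It stood in 14.9% of all promoters of genes called lower. Without the ribosomal group it stood in 11.5% of 2071 such promoters and 7.09% of 20338 promoters of all genes. Of 27 water channel genes 12 rose and 1 fell (median 0.25), and they held 0.645 to 0.701% of the CPM in vil1-1 and 0.522 to 0.582% in Col-0. Of 8 cationic amino acid transporters 6 rose. Of 25 late embryogenesis abundant proteins 15 rose and 1 fell (median 0.83), and of 10 oleosins 5 rose (median 1.04). Together the oleosins held 0.162 to 0.174% of the CPM in vil1-1 and 0.143 to 0.167% in Col-0, so the genotypes overlapped in this share.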
